A study of Mus musculus with 4 samples.

Results

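Cytosolic ribosomal protein genes encode the proteins that, with ribosomal RNA, build the large and the small subunit of the ribosome. The genes were taken by name: probe sets that the platform annotation pairs with exactly 1 symbol of the Rpl or Rps series (Rpsa and the Rplp stalk genes included, ribosomal S6 kinases and mitochondrial ribosomal proteins left out). This gave 46 genes on 100 probe sets, of 18193 genes with a probe set of their own and 45037 probe sets on the array other than controls. Of the 46 genes, 24 belong to the large and 22 to the small subunit, and no expression value entered the choice. A further 28 ribosomal protein genes had only probe sets that the annotation shares with another symbol, and single genes are not reported from these.

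The cells were mesenchymal stem cells (MSC), plastic-adherent stromal cells that can form bone, fat and cartilage, cultured from flushed colon or from bone marrow of C57BL/6 mice. There were 2 colonic and 2 bone marrow cultures, each called a biological replicate and measured on 1 array. They are called lines here, though the sample titles do not say whether the 2 of a tissue were derived separately. The labels name no treatment or engineered allele for any of the 4 lines. They were kept in low glucose DMEM (10 mM HEPES, 10% serum) and lysed between passages 5 and 10. Their amplified RNA was hybridised to Affymetrix mouse arrays. Neither the age of the mice nor the number of animals behind a line is stated.

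The array medians lay between 53.7 and 55.6 and the highest intensities between 19203 and 20912, so the arrays shared 1 scale. All 9 MSC surface markers with a probe set of their own passed the filter on dim probe sets in the mean of the 4 arrays. However, Thy1 (CD90), a defining marker of MSC, had 4516 and 9032 in the colonic lines, against 32.8 and 22.0 in the bone marrow lines, where it lay below or near the filter (limma adjusted p = 0.0502). The defining markers of leukocytes (Ptprc), epithelium (Epcam) and endothelium (Pecam1) fell below the filter. However, 8 of 10 macrophage, 6 of 10 epithelial and 3 of 7 endothelial markers passed it. The summed intensity of 10 macrophage markers was 1957 and 3017 in the colonic lines, against 2954 and 1207 in the bone marrow lines. That of 10 epithelial markers was 3070 and 281 against 6541 and 5420, and that of 7 endothelial markers 273 and 210 against 195 and 135. The keratin Krt19 (1890 and 105 against 6223 and 5083) made up most of the epithelial sum except in colonic replicate 2. Another keratin, Krt20, had 889 and 29.1 against 29.4 and 15.9. Within the macrophage list the leukocyte gene Cd53 had 155 and 1333 in the colonic lines, against 13.98 and 15.7 in the bone marrow lines (limma adjusted p = 0.593). What part other cells had in any result was not tested, and in bulk RNA a change in the share of cells and a change in RNA per cell cannot be told apart.

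Ribosomal protein messenger RNAs are among the most abundant in growing cells. They are transcribed from compact promoters without strong tissue restriction, and in mammals they share a terminal oligopyrimidine (TOP) tract at their 5′ end, a run of pyrimidines that starts with C and through which growth signals govern their translation. Subunits are assembled with each protein in fixed proportion, and several of these genes are in common use as references for expression. A few have paralogs with restricted expression, such as Rpl39l and Rpl3l.

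Promoters were examined because the tract lies in sequence that the choice by name did not use. RefSeq promoters (GRCm38.p6, from 250 bases before to 50 after the start) were found for 40 of the 46 genes, 48 promoters in all. A TOP-like tract was counted where a C within 5 bases of the annotated start, on the transcribed strand, was followed by at least 4 bases that are each C or T. The bases before that C were not examined, so the whole run of pyrimidines can begin outside these 5 bases. Such a tract was present in 20 of 48 promoters (41.7%), against 18.3% of all 32851 promoters. On the opposite strand the same search found 7 of 48 (14.6%), against 21.7% of all. CCGGAAG, a sequence bound by ETS family factors, was found on either strand in 20 of 48 promoters (41.7%), against 8.86% of all, and 12 of 48 (25%) held it and the TOP-like tract, against 2.11% of all. The TATA box TATAAA was in 5 of 48 (10.4%, against 13.6%), the E-box CACGTG in 5 (10.4%, against 7.15%) and the YY1 sequence AAGATGGC in 3 (6.25%, against 2.75%), each on either strand. These matches are a description of the windows and not of bound factors.

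The sequences below run from 150 bases before the start to 20 bases after it, with TOP-like tracts and CCGGAAG (or its reverse complement) in capitals. Rpl35 and Rpl38 show promoters that hold both, Rpl6 is the bright gene with the highest difference between tissues, and Rps15 and Rpl39l are 2 genes with a single line apart from the others. Rps15 had no CCGGAAG in this window and no TOP-like tract beginning within 5 bases of the annotated start. Rpl6 and Rpl39l had CCGGAAG and no such tract. In Rpl35 and Rpl38 further pyrimidines lie directly before the capitals, and in Rpl35 the whole run begins outside the 5 bases. Pyrimidine runs elsewhere in the windows are not marked, and the search depends on where the start is annotated.
Rpl35, chr2:39005112-39005281, minus strand: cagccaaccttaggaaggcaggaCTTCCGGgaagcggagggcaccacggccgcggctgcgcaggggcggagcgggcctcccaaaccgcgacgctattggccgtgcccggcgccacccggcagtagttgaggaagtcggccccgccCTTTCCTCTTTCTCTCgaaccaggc
Rpl38, chr11:114668430-114668599, plus strand: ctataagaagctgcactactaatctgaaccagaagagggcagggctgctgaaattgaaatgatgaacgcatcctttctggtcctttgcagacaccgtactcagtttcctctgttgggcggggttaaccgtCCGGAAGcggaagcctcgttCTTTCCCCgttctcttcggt
Rpl6, chr5:121204351-121204520, plus strand: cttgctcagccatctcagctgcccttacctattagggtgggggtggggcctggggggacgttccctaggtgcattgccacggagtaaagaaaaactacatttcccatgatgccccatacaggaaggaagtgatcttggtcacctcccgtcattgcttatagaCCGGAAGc
Rps15, chr10:80292281-80292450, plus strand: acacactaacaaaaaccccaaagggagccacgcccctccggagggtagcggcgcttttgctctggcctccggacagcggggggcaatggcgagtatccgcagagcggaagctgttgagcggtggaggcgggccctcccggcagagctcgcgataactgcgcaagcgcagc
Rpl39l, chr16:10170078-10170247, plus strand: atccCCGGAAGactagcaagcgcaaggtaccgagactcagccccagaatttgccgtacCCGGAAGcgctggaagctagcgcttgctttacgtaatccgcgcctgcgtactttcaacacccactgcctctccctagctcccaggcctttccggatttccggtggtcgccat

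The comparison asks whether colonic MSC differ from bone marrow MSC in the transcripts of the ribosome itself. For nearly all ribosomal protein genes no difference was found, and the arrays lay close together. Of the 46 genes, 44 passed the filter (an average over the 4 arrays above an intensity of 31.9). Rpl3l, a paralog of Rpl3 found in striated muscle, had 12.9 and 9.63 in colonic MSC and 3.18 and 9.42 in bone marrow MSC. The only probe set counted for Rps16, 2 others being shared with another symbol, had 2.69 and 4.39 in colonic MSC and 6.93 and 4.96 in bone marrow MSC. Both stayed below the filter.

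With limma over 12920 genes, 0 of the 44 ribosomal protein genes passed an adjusted p of 0.05, where 0.00% of all genes did. At an unadjusted p below 0.05 the count was also 0, against 6.00% of all genes (3.30% higher and 2.70% lower in colonic MSC), and the smallest unadjusted p was 0.190 (limma, Rpl6). The median log2 difference, colonic minus bone marrow, was 0.01 over the 44 genes and 0.01 over all genes tested. The differences of the ribosomal protein genes had a median size of 0.04, against 0.23 for all genes. In 43 of 44 genes the difference was below 0.5 in size, against 77.2% of all genes. The 95% interval lay within 0.5 of 0 in 33 of 44 genes, against 5.50% of all genes. For these 33 a difference beyond 0.5 on the log2 scale is outside the interval, while for the other 11 the arrays do not exclude one. These measures depend on intensity. A mean intensity above 8000 was found in 33 ribosomal protein genes, not the same 33, and in 384 genes in all. Among genes that bright, the interval lay within 0.5 of 0 in 32 of 33, against 287 of 384. Differences were below 0.5 in size in 33 of 33, against 367 of 384, with median sizes of 0.04 and 0.09.

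**Figure D1:**
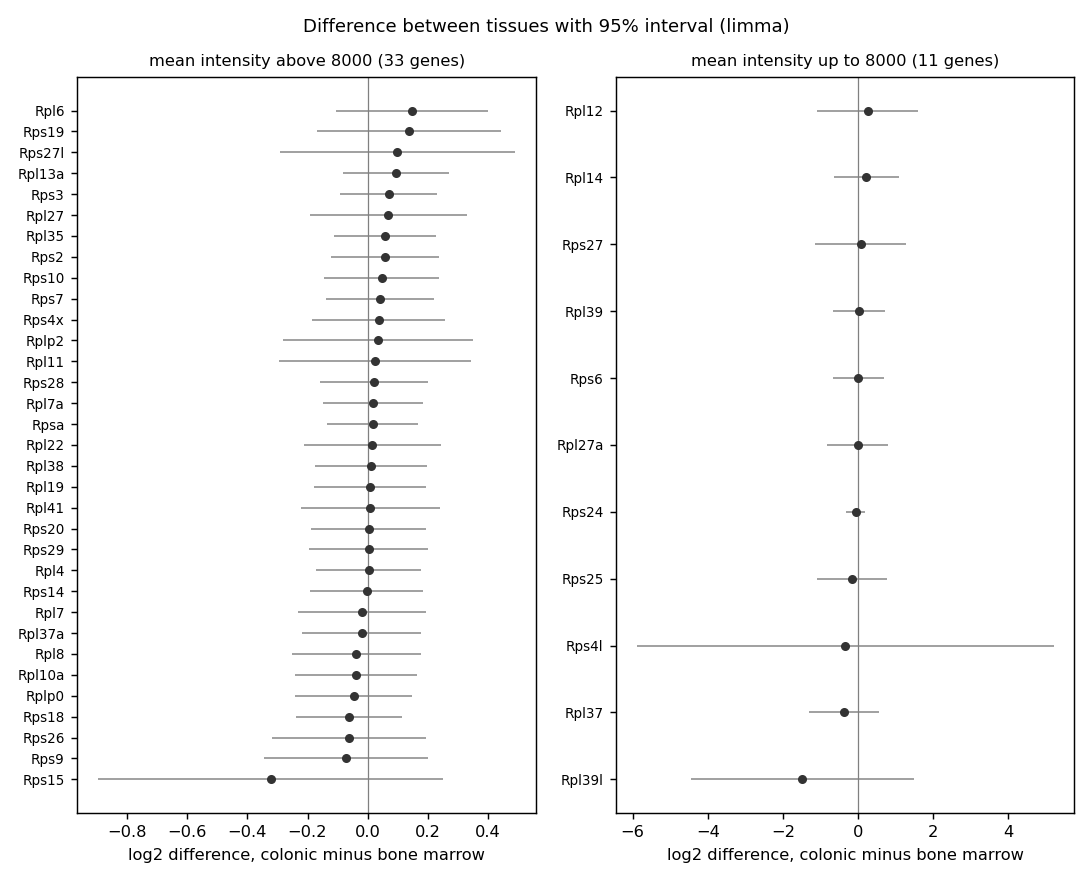
Log2 difference (colonic minus bone marrow) of the 44 ribosomal protein genes tested, with 95% intervals from limma. Left, 33 genes with a mean intensity above 8000, right, 11 genes up to 8000, on a wider axis. All intervals include 0, and those of Rps4l and Rpl39l reach from -5.88 to 5.21 and from -4.46 to 1.49.

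The colonic values lay above both bone marrow values in 8 of 44 genes, against 18.4% of all genes, and below both in 5 of 44, against 15.1%. Among the 33 genes with a mean intensity above 8000, a bound set after seeing the values, the counts were 8 and 3, where 30.2% and 8.07% of all 384 genes that bright lay above and below. These shares were near or below those of all genes. The 8 were Rpl6, Rpl7a, Rpl13a, Rpl35, Rps2, Rps3, Rps7 and Rps10, and the 5 were Rpl10a, Rpl37, Rps15, Rps18 and Rps24. Among the 8 the difference reached at most 0.15 on the log2 scale, in Rpl6.

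The spread over arrays was narrow. The highest and lowest array differed by less than 0.25 on the log2 scale in 31 of 44 genes, against 10.0% of all genes. Intensity matters for this measure, and genes above 8000 were therefore also set against all genes above 8000. The bound of 0.25 was likewise set after seeing the values. Of the 33 ribosomal protein genes above 8000, 29 had a spread below 0.25, against 56.2% of the 384 genes above 8000. Their median spread was 0.10, against 0.22 for the 384 genes, which include the 33. The other 351 genes above 8000 had a median spread of 0.23, and 53.3% of them were below 0.25. Intensities were not matched above 8000, so whether other genes of equal intensity spread as little was not tested. In the 11 ribosomal protein genes up to 8000 the median spread was 0.68, against 0.65 for all 12920 genes. The scale ended near 20912, and whether signals near the top were compressed was not tested.

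**Figure D2:**
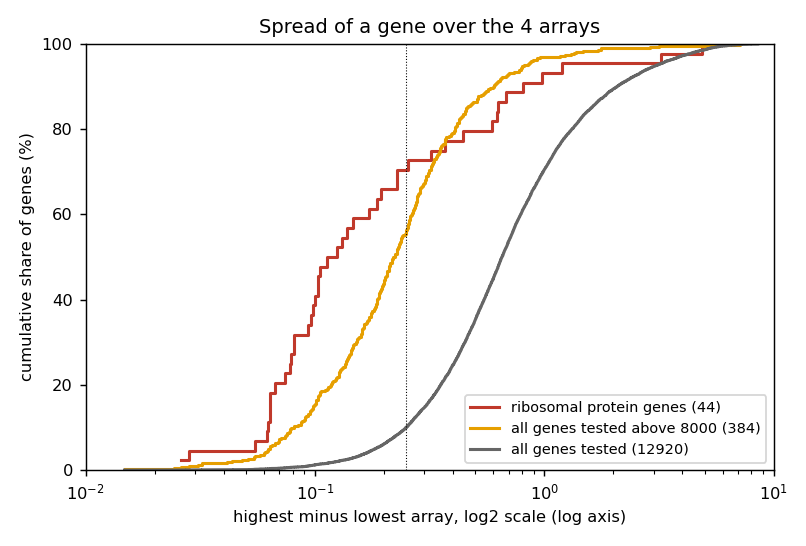
Cumulative share of genes (%) by the difference between the highest and the lowest of the 4 arrays on the log2 scale (log axis), for the 44 ribosomal protein genes, the 384 genes with a mean intensity above 8000 and all 12920 genes. At 0.25 (dotted line) the curves stand at 31 of 44 genes, 56.2% and 10.0%.

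No array was offset by more than 0.03 in the median of the 44 genes. Around each gene's mean, the median of the 44 genes was -0.02 and 0.03 in colonic replicates 1 and 2, and -0.0036 and -0.0009 in bone marrow replicates 1 and 2, on the log2 scale. Replicates of 1 tissue differed by a median of 0.07 (colonic) and 0.05 (bone marrow), and the median size of the difference between tissues was 0.04. A difference between means of 2 arrays tends to be smaller than 1 between single arrays, even where tissues do not differ. The ordering of these sizes was therefore fixed in part by the measures. Colonic replicate 1 was the lowest array in 14 genes, colonic replicate 2 in 5, bone marrow replicate 1 in 14 and bone marrow replicate 2 in 11. Among the 33 genes above 8000, colonic replicate 1 was the lowest array in 12 and the highest in 5, and colonic replicate 2 the lowest in 1 and the highest in 13.

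**Figure D3:**
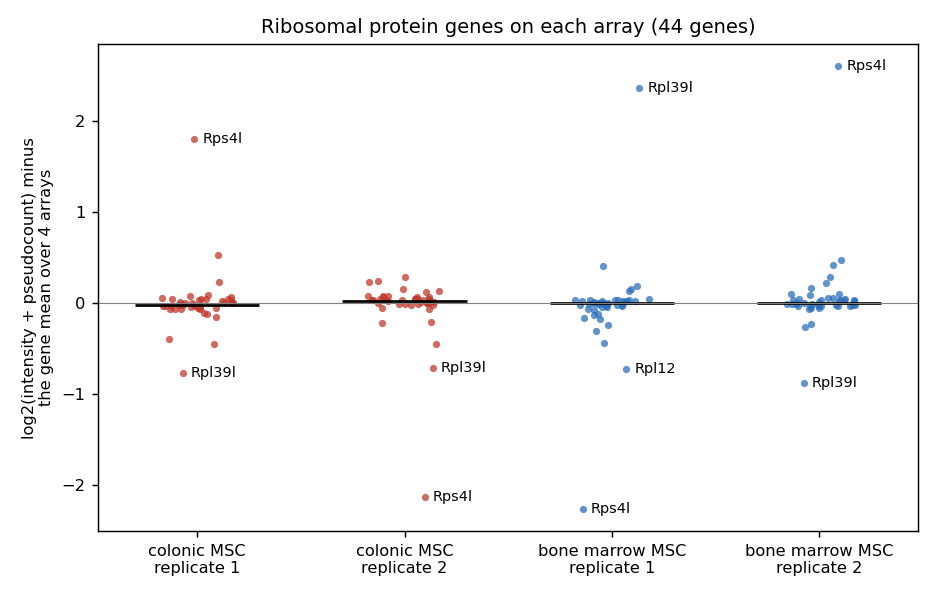
Deviation of each of the 44 ribosomal protein genes from its own mean over the arrays, log2 scale, by array (colonic lines left, bone marrow lines right), with a bar at the median. The points crowd around 0, and the labelled ones, deviating by over 0.6, belong to Rpl39l, Rps4l and Rpl12.

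Large subunit genes had a median log2 difference of 0.01 over 23 genes tested and small subunit genes 0.02 over 21. Of the large subunit genes 4 lay above and 2 below both bone marrow values without overlap, of the small subunit genes 4 and 3, where 18.4% of all genes lay above and 15.1% below.

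In the large subunit, the highest difference of a gene above 8000 was that of Rpl6, a protein of the large subunit. Rpl6 had intensities of 14470 and 14513 in colonic MSC, against 12171 and 14055 in bone marrow MSC. Both colonic values were higher, and bone marrow replicate 1 was the low array. The log2 difference was 0.15 ± 0.10 (SE), with a limma adjusted p of 0.976. Without bone marrow replicate 1 it was 0.04.

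Rpl13a, a large subunit protein often used as a reference gene, had 14738 and 14473 in colonic MSC and 13519 and 13830 in bone marrow MSC. The groups did not overlap, and the log2 difference of 0.10 ± 0.07 (SE) did not pass (limma adjusted p = 0.976). All 4 probe sets of Rpl13a had differences between 0.09 and 0.15. Rpl35, which sits at the exit of the peptide tunnel, had 16234 and 15644 in colonic MSC, against 15216 and 15376 in bone marrow MSC, a difference of 0.06 ± 0.06 (SE). Here too the colonic values were the higher ones in Rpl35.

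The tunnel exit also holds Rpl19, Rpl22 and Rpl39. Rpl19 had 13713 and 13901 in colonic MSC and 14021 and 13425 in bone marrow MSC, so the groups overlapped, with a 95% interval of the log2 difference from -0.18 to 0.20. Rpl4, whose extension lines the tunnel, had 14947 and 15525 in colonic MSC and 15012 and 15389 in bone marrow MSC, with an interval from -0.17 to 0.18. Rpl27 had 9888 and 11078 in colonic MSC and 10136 and 9830 in bone marrow MSC, and a difference of 0.07 ± 0.10 (SE). Rpl7 had 11948 and 12852 in colonic MSC and 12761 and 12352 in bone marrow MSC, and a difference of -0.02 ± 0.08 (SE). In each of these 4 genes the replicates of at least 1 tissue were farther apart than the means of the tissues.

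The stalk of the large subunit recruits elongation factors. Its base protein Rplp0 had 13414 and 14284 in colonic MSC, against 14090 and 14505 in bone marrow MSC. The groups overlapped, and the log2 difference was -0.05 ± 0.07 (SE). Rplp2, an acidic stalk protein, had 9097 and 9773 in colonic MSC and 8500 and 9954 in bone marrow MSC, a difference of 0.04 ± 0.12 (SE). Rpl12, which binds at the stalk base, was seen on a dimmer probe set with 729 and 908 in colonic MSC and 444 and 1035 in bone marrow MSC. Bone marrow replicate 1 was the low array of Rpl12, and its difference of 0.26 ± 0.50 (SE) was -0.34 without that array.

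Rpl11, which with Rpl5 and 5S RNA forms a particle that can bind Mdm2 and stabilise p53, had 8419 and 8181 in colonic MSC and 7540 and 8830 in bone marrow MSC. The colonic values lay between those of bone marrow, and the log2 difference was 0.02 ± 0.12 (SE). Rpl5 is not analysed here, its probe sets being shared with another symbol.

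In the small subunit, Rpsa, a protein of the subunit head also described as a laminin receptor, had 19243 and 20068 in colonic MSC and 19203 and 19650 in bone marrow MSC. Its 95% interval of the log2 difference was -0.14 to 0.17. A dim second probe set of Rpsa had -0.34 ± 0.49 (SE) with overlapping groups. Rps3, at the entry of the messenger RNA channel, had 16421 and 16397 in colonic MSC and 15525 and 15740 in bone marrow MSC. The colonic lines agreed within 0.01 on the log2 scale and lay above both bone marrow lines, but the difference of 0.07 ± 0.06 (SE) did not pass (limma adjusted p = 0.976). With quantile normalization it was -0.0083. A dimmer probe set of Rps3 had 970 and 764 in colonic MSC and 590 and 1474 in bone marrow MSC, a difference of -0.12 with overlap. Rps18, a protein of the head, had lower colonic values on its brightest probe set, with 14677 and 15385 in colonic MSC and 15599 and 15763 in bone marrow MSC. The difference was -0.06 ± 0.07 (SE). The 2 other bright probe sets of Rps18 had 0.05 and 0.08, so the direction was not shared between them.

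Rps19, needed for maturation of the small subunit and the gene most often mutated in human Diamond-Blackfan anemia, had 10614 and 11923 in colonic MSC and 9551 and 10926 in bone marrow MSC. The groups overlapped, with a log2 difference of 0.14 ± 0.12 (SE) that ran from 0.04 to 0.24 with an array left out. Of the 17 genes listed for that disease, 11 were measured, 0 passed the threshold, and their differences ran from -0.06 to 0.14. Rps29 had 12542 and 13241 in colonic MSC and 12836 and 12874 in bone marrow MSC, an interval from -0.19 to 0.20. In the next 2 genes colonic replicate 1 was the lowest array. Rps26, at the messenger RNA exit, had 10829 and 12327 in colonic MSC and 12094 and 12028 in bone marrow MSC, a difference of -0.06 ± 0.10 (SE) that was 0.03 without that array. Rps9 had 8841 and 9802 in colonic MSC and 9474 and 10115 in bone marrow MSC, a difference of -0.07 ± 0.10 (SE) that was 0.0018 without it. Rps24 had 7738 and 7850 in colonic MSC and 8003 and 8293 in bone marrow MSC, a difference of -0.06 ± 0.10 (SE) without overlap.

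Rps15, a protein of the head near the decoding site, had the largest difference among the 33 bright genes, and it came from 1 line. Rps15 had 5786 and 8682 in colonic MSC, against 8838 and 8904 in bone marrow MSC. Colonic replicate 1 was low, while colonic replicate 2 lay close to both bone marrow lines. Its log2 difference was -0.32 ± 0.22 (SE), with a limma adjusted p of 0.976, and -0.03 without colonic replicate 1. The second probe set of Rps15 had 2607 and 4176 in colonic MSC and 4505 and 4378 in bone marrow MSC, with the same array low, and its difference of -0.43 was -0.09 without it. Colonic replicate 1 was also the lowest array in Cdk1, a kinase of cell division (4095 and 11363 in colonic MSC, 9962 and 9720 in bone marrow MSC), and its part in the Rps15 value was not tested.

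The 5 paralogs measured had a median spread over the 4 arrays of 0.49, against 0.65 for all genes, and 0 passed the threshold. Rpl39l, a paralog of the tunnel protein Rpl39 that in mouse is enriched in testis, had 176 and 183 in colonic MSC, against 1640 and 162 in bone marrow MSC. Bone marrow replicate 1 alone was high, and the other 3 lines lay together. The log2 difference of -1.48 ± 1.12 (SE), with a limma adjusted p of 0.976, was 0.14 with the first bone marrow line left out and -3.10 with the second left out. Rpl39l was the 1 ribosomal protein gene of 44 that differed by at least 1 on the log2 scale, against 9.02% of all genes. Above 8000 the count was 0 of 33, against 1.04% of all genes that bright. The probe set of Rpl39 itself was dim, with 49.4 and 32.7 in colonic MSC and 38.2 and 41.2 in bone marrow MSC.

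Rps4l, a paralog of Rps4x, was split within both tissues, with 285 and 5.98 in colonic MSC and 4.24 and 509 in bone marrow MSC. In each tissue 1 line was near the floor and the other was not. Its log2 difference of -0.34 ± 2.09 (SE) therefore carried no direction, being 2.10 with the second bone marrow line left out and -2.77 with the first left out. Leaving out the second colonic line gave 1.63, and leaving out the first gave -2.30. Rps4x had 12764 and 13780 in colonic MSC and 13352 and 12521 in bone marrow MSC, a difference of 0.04 ± 0.08 (SE).

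Rps27l, a paralog of Rps27 that p53 induces in human cells, had 10416 and 10573 in colonic MSC and 11139 and 8616 in bone marrow MSC. Bone marrow replicate 2 was the low array on all 3 probe sets, whose differences ran from 0.10 to 0.15. The log2 difference of 0.10 ± 0.15 (SE) was -0.09 without that array. Bone marrow replicate 2 was also the lowest array in the p53 targets Cdkn1a (20264 and 5824 in colonic MSC, 6378 and 436 in bone marrow MSC), Ccng1 (10213 and 9745 against 10608 and 4086) and Mdm2 (6858 and 7316 against 7584 and 4131). In Sesn1, another p53 target, it was the highest array. What these had to do with the Rps27l value was not tested. Rps27 was measured on a dim probe set with 187 and 88.1 in colonic MSC and 144 and 102 in bone marrow MSC.

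The genes up to an intensity of 8000 had the largest differences and the widest intervals. In 8 of these 11 genes (Rpl12, Rpl14, Rpl27a, Rpl37, Rpl39, Rps6, Rps25 and Rps27) the annotation has further probe sets that also match another symbol, so the counted probe set is not the only one for the gene. Rpl37 had 284 and 270 in colonic MSC, against 425 and 309 in bone marrow MSC, both colonic values being lower. Its log2 difference of -0.37 ± 0.36 (SE) was -0.15 without bone marrow replicate 1. Rps25 had 1919 and 2954 in colonic MSC and 2128 and 3365 in bone marrow MSC, a difference of -0.17 ± 0.35 (SE). The replicates of Rps25 differed by more than the means of the tissues did, and the sign turned to 0.14 without colonic replicate 1 and to 0.16 without bone marrow replicate 2. Rpl14 had 1633 and 1962 in colonic MSC and 1217 and 1935 in bone marrow MSC, a difference of 0.22 ± 0.325 (SE), which was -0.11 without bone marrow replicate 1.

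Probe sets of 1 gene often differed in sign. Of the 100 probe sets 94 passed the filter, and in the 20 genes with at least 2 of these the differences spanned a median of 0.11 on the log2 scale. The span is the highest minus the lowest of a gene's probe sets, dim ones included. It is not a like measure to the size of a single difference (median 0.04 over the 44 genes). In 15 of the 20 genes the probe sets had both signs. The span was at least 0.5 in 3 genes, Rpl22, Rpl41 and Rps18, and in 8 genes without bone marrow replicate 1. Rpl22, which lies at the tunnel exit and has the paralog Rpl22l1, had 12166 and 11893 in colonic MSC and 11370 and 12453 in bone marrow MSC on its brightest probe set. On another it had 2780 and 2659 in colonic MSC, against 3711 and 4392 in bone marrow MSC, a log2 difference of -0.57 ± 0.18 (SE) that stayed between -0.69 and -0.45 with each array left out. Its adjusted p was 0.760 (limma over 23138 probe sets). It was the only one of the 94 below an unadjusted 0.05, against 5.79% of all probe sets. The third probe set of Rpl22 had a difference of -0.04, and which transcripts each probe set reads was not analysed here. Rpl22l1 had 3988 and 5208 in colonic MSC and 5036 and 4009 in bone marrow MSC, a difference of 0.02 with overlapping groups.

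The differing probe sets of Rpl41 and Rps18 were dim ones. That of Rpl41 had 210 and 491 in colonic MSC and 388 and 652 in bone marrow MSC, and that of Rps18 19.1 and 31.6 in colonic MSC and 39.5 and 56.4 in bone marrow MSC. The bright probe sets of both genes differed by at most 0.08 in size. Over the 57 member probe sets above 8000 the median size of the difference was 0.04. It was 0.14 over the 17 between 1000 and 8000 and 0.22 over the 20 below. Of the 94, 17 lay above both bone marrow values, against 18.4% of all probe sets, and 13 below, against 15.3%.

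Probe sets whose suffix (_x_at) marks probes that can match other transcripts numbered 39, with a median difference of 0.01, and the 26 with the plain suffix (_at) had -0.03. Their median intensities were 11800 and 547, so these suffixes were not compared at like intensity. Ribosomal protein genes have many processed pseudogenes, and signals of near-identical copies cannot be told apart on these arrays. The 106 probe sets past the filter that pair a ribosomal protein symbol with another symbol had a median difference of 0.01, a range from -0.73 to 0.32, and no difference of at least 2-fold. Of these, 28 (26.4%) lay above both bone marrow values, against 18.4% of all probe sets, and 14 (13.2%) below, against 15.3%.

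**Figure D4:**
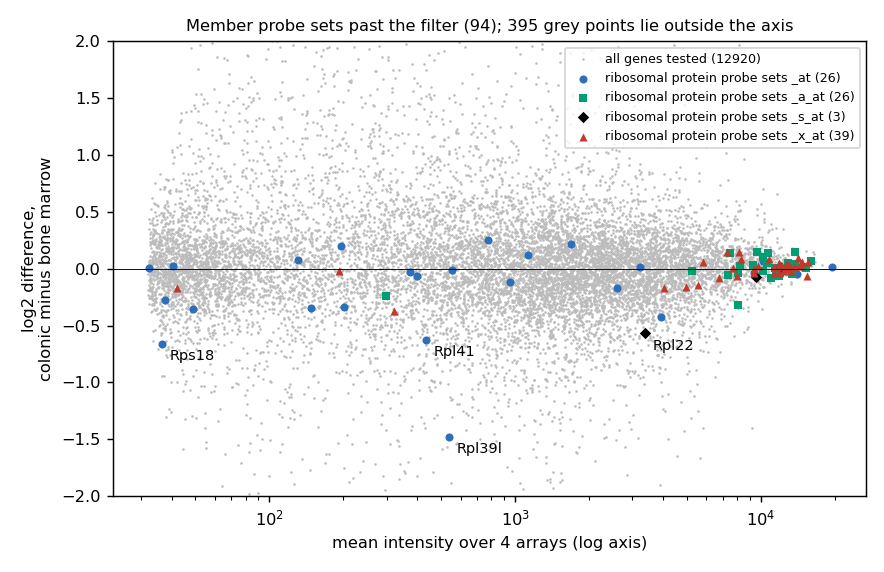
Log2 difference (colonic minus bone marrow) against mean intensity (log axis) for the 94 ribosomal protein probe sets past the filter, by probe set suffix, over all 12920 genes in grey, of which 395 lie beyond the axis limit of 2. The probe sets above 8000 lie between -0.32 and 0.15, and the labelled ones with a difference over 0.5 are those of Rpl39l, Rps18, Rpl41 and Rpl22.

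Ribosomal protein genes in common use as references covered 7 measured genes, with differences from -0.06 (Rps18) to 0.10 (Rpl13a) and 0 past the threshold. Among 9 other reference genes 0 passed, and differences ran from -0.59 (Tfrc, the transferrin receptor, 5358 and 4361 in colonic MSC, 6202 and 8604 in bone marrow MSC) to 0.23. Tbp, the TATA-binding protein, had 761 and 833 in colonic MSC and 1055 and 1088 in bone marrow MSC, a log2 difference of -0.42 without overlap. Actb, cytoplasmic actin, had 13858 and 14141 in colonic MSC and 13226 and 12354 in bone marrow MSC, a log2 difference of 0.13, also without overlap. Hprt, a purine salvage enzyme, overlapped at 8038 and 8770 in colonic MSC and 8060 and 6914 in bone marrow MSC.

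Fau, which encodes the small subunit protein eS30 fused to a ubiquitin-like protein, is a ribosomal gene outside the naming rule. Fau had 8133 and 8558 in colonic MSC, against 8864 and 9344 in bone marrow MSC, a log2 difference of -0.13 ± 0.10 (SE) without overlap.

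Other genes of ribosome production were read from the same fit, and 0 passed the threshold in any of these lists. Counts without overlap below are to be read against 18.4% of all genes above, 15.1% below and 33.5% in either direction. Of 22 other measured genes whose RNAs also begin with TOP tracts, mostly translation factors and snoRNA host genes, 9 lay below both bone marrow values without overlap and 5 above, with a median log2 difference of -0.13. The lowest unadjusted p were those of Snhg1 and Snhg8, host genes of small nucleolar RNAs. Snhg1 had 4700 and 4637 in colonic MSC, against 6747 and 7921 in bone marrow MSC, a log2 difference of -0.65 ± 0.14 (SE, limma adjusted p = 0.434). Snhg8 had 3880 and 3111 in colonic MSC, against 4714 and 6606 in bone marrow MSC, a difference of -0.68 ± 0.24 (SE, limma adjusted p = 0.760). Both colonic lines were below both bone marrow lines in each of these host genes.

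Eif4b, an initiation factor and S6 kinase substrate, had 6918 and 8523 in colonic MSC, against 9664 and 10259 in bone marrow MSC, a log2 difference of -0.37 ± 0.14 (SE, limma adjusted p = 0.805). Eif3e, a subunit of initiation factor eIF3, had 9535 and 9899 in colonic MSC and 11929 and 10649 in bone marrow MSC, a difference of -0.21 ± 0.10 (SE). Whether these genes differ from the ribosomal protein genes was not tested.

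Of 35 ribosome biogenesis genes 3 lay above and 1 below both bone marrow values, 11.4% in all and fewer than among all genes, with a median of -0.10. The 1 below was Nop58, a core protein of box C/D small nucleolar particles, with 2143 and 3416 in colonic MSC and 3493 and 4096 in bone marrow MSC. The 3 above were the assembly factors Mdn1 (1026 and 966 in colonic MSC, 558 and 779 in bone marrow MSC), Sbds (3115 and 2464 against 2432 and 2047) and Bysl (2332 and 1938 against 1638 and 1838). Of 14 genes of RNA polymerase I, which makes ribosomal RNA, 5 lay below and 0 above, with a median of -0.17. In either direction this was 35.7%, near the 33.5% of all genes, but all 5 lay below, where 15.1% of all genes did. Ubtf, the factor that keeps ribosomal DNA open, had 773 and 1478 in colonic MSC and 1561 and 1728 in bone marrow MSC. Polr1c, a polymerase subunit, had 3190 and 3500 in colonic MSC and 3917 and 4539 in bone marrow MSC, a log2 difference of -0.33 ± 0.17 (SE). The initiation factor gene Taf1a had 349 and 419 in colonic MSC and 564 and 574 in bone marrow MSC, and Taf1d had 1124 and 1176 against 1228 and 2047.

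Of 17 regulators of ribosome production 3 lay above and 5 below, with a median of 0.02. Rictor, the defining subunit of mTOR complex 2, had 756 and 838 in colonic MSC, against 1412 and 1770 in bone marrow MSC, a log2 difference of -0.98 ± 0.28 (SE, limma adjusted p = 0.659). Myc, a driver of ribosome production, had 1036 and 994 in colonic MSC and 1201 and 2288 in bone marrow MSC, with bone marrow replicate 2 alone high. Maf1, a repressor of RNA polymerase III, had 2675 and 3089 in colonic MSC and 4376 and 3296 in bone marrow MSC. Akt1, a kinase upstream of mTOR, had 5786 and 6788 in colonic MSC and 5560 and 5143 in bone marrow MSC.

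Of 8 genes of the nucleolar stress pathway 0 lay above and 1 below without overlap. The 1 below was Sesn1, a p53 target that restrains mTOR, with 530 and 1004 in colonic MSC and 1478 and 1581 in bone marrow MSC. The 9 proliferation genes overlapped between tissues in all cases, with a median log2 difference of -0.41. Colonic replicate 1 was the lowest array in all 9, and the colonic lines differed by a median of 1.47 on the log2 scale, against 0.13 between the bone marrow lines.

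The 74 mitochondrial ribosomal protein genes, which build a separate ribosome, had 0 genes past the threshold, 8 above and 12 below without overlap, and a median of -0.03. The 20 without overlap were 27.0% of the list. Their differences ran from -0.51 (Mrpl54) to 0.27 (Mrpl17). Mrpl11 had 3320 and 3676 in colonic MSC and 4089 and 4779 in bone marrow MSC, and Mrpl21 had 1970 and 2046 against 2515 and 2532, both without overlap. Over the 4 arrays the mitochondrial genes had a median spread of 0.37 on the log2 scale, against which the cytosolic genes' 0.12 stands beside a brighter range of intensities.

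**Figure D5:**
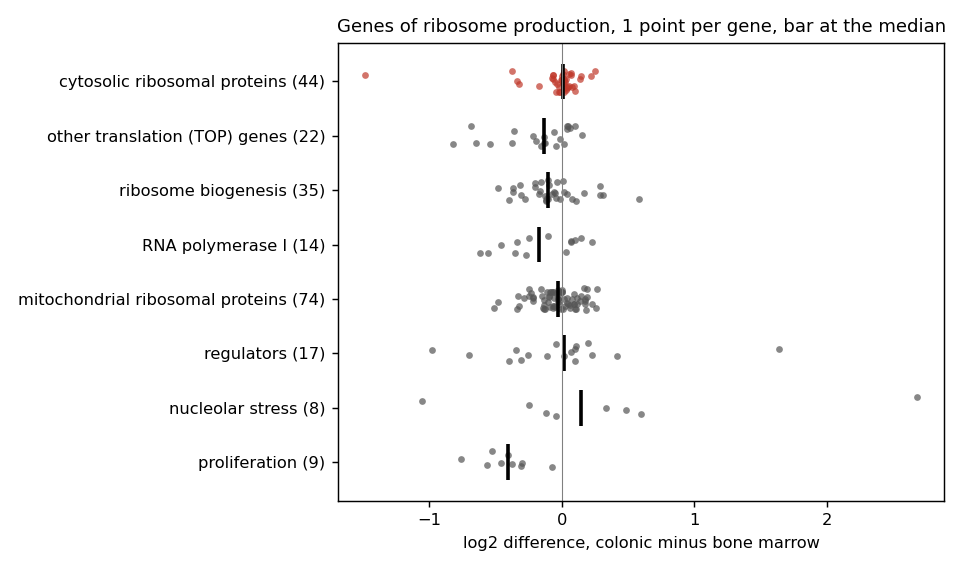
Log2 difference (colonic minus bone marrow) of single genes by list, with a bar at the median. The ribosomal protein genes (44, top) centre on 0.01, and the medians of the other lists run from -0.41 (proliferation) to 0.15 (nucleolar stress).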

How the data were processed

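Amplified, biotin-labelled RNA of 4 mouse MSC lines was measured on Affymetrix arrays. The authors deposited a table with an intensity for each probe set, linear as far as the values show. No source used here names the probe summary, the background correction or any scaling, and the deposited scaling was kept.

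Intensities had 13.7 added (0.25 of the table's median of 54.6) before log2 was taken, which understates differences of dim genes. Of 45101 probe sets, 64 controls were left out; 34945 had 1 symbol, 932 several and 9160 none. Probe sets whose mean log2 value passed the 40th percentile were kept, a gene high in 1 tissue alone included, and each gene was read from its brightest probe set. The 12920 genes were fitted with limma 3.58.1 in R 4.3.3 (lmFit, eBayes with intensity trend, colonic minus bone marrow, 2 residual degrees of freedom), two-sided, with Benjamini-Hochberg adjustment over all genes at 0.05. Exact permutation of 2 against 2 arrays cannot go below p = 0.333. SE are limma's. The fit was tested on simulated data. The number of arrays limits precision. SE and p-values combine the spread between these lines with that of genes of like intensity, at 2 residual and 2.53 prior degrees of freedom.

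Genes named were the 8 with the largest difference in each direction, the members of the stalk, 5S particle, paralog, paralog partner and reference gene lists, and up to 4 genes of each companion list by unadjusted p. Rpsa, Rpl41, the genes whose promoters are printed, Rpl3l and Rps16, the motifs, and the bounds of 8000 and 0.25 were chosen after values were seen. Members and lists were chosen with earlier results of these data known. Alternatives covered normalization, pseudocount, filter, probe set rule, variance model, replicate block, threshold and each array left out.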

Additional observations from a re-analysis of the deposited data

How the results depend on the processing

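The count of 0 ribosomal protein genes past an adjusted p of 0.05, and that of 0 companion genes (cell type markers not counted), were 0 under all alternatives run, including an adjusted p of 0.1. Among the markers 9 values passed at 0.05: Thy1 under 7 alternatives, and Cd53 and Krt19 without colonic replicate 1. At an unadjusted p below 0.05 (limma) the count was 0, with 1 when each probe set was tested separately and 0 to 1 with an array left out. The median log2 difference of 0.0133 was -0.0361 with quantile normalization and -0.0065 with median centring, so its sign depends on the scaling, and it lay between 0.0012 and 0.0213 with an array left out. For the large subunit (0.0115) the same settings gave -0.0268, -0.0083 and a range from -0.0008 to 0.0199. For the small subunit (0.0151) they gave -0.0421, -0.0046 and a range from 0.0014 to 0.0315, with -0.0048 for the mean of probe sets and -0.0026 for each probe set separately. Genes without overlap numbered 13, and 27 without either colonic line or 30 without either bone marrow line, where 3 arrays overlap less often by construction. Genes whose probe sets spanned at least 0.5 numbered 3, and 4 to 8 with an array left out. Of 476 values of the 30 named genes, 0 passed the threshold and 50 changed sign, in 24 genes. The labels share replicate numbers between tissues but do not say that they mark a pairing. Deviations of same-numbered lines correlated with r = 0.14 over 27022 probe sets, which are not independent, and with r = -0.53 over the 94 ribosomal protein probe sets, and the replicate block gave 0 genes past the threshold, a median of 0.0133 and 13 genes without overlap. With 2 lines per tissue, differences beyond 0.5 were not resolvable in the 11 genes whose intervals reach past it, Rps15 and 10 of the 11 genes up to 8000.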
